A study of Mus musculus with 3 samples.

Results

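NUP153 KD-1 and NUP153 KD-2 are mouse ES cells in which the same nuclear pore gene was knocked down with different short hairpin RNAs, shRNA-1 and shRNA-2, and the RNA-Seq library of KD-1 was compared here directly with that of KD-2. This comparison uses 2 of the 3 libraries of the series and leaves out the control shRNA library. It covers 12862 of 24421 genes, those whose reads averaged 100 or more over both libraries. Both libraries were made from undifferentiated EL 16.7 cells, an ES line labelled female on an F2 background given as 129S1/CastEiJx 129S1. The cells grew with LIF on γ-irradiated embryonic fibroblasts (MEFs) isolated from Tg(DR4)1Jae/J mice, received the hairpins by lentivirus, and were kept in 2 μg/ml puromycin for 2 days. DR4 fibroblasts carry drug resistance genes that include puromycin resistance, so that feeder cells can stay alive in the dish during such a selection. The transduced cells were collected as a population and no clones were named. Because each knockdown has 1 library, no gene in this comparison has a replicate check, no p-value is given, and a gene is named as called when its scaled reads differ by more than 1.5-fold.

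NUP153 sits in the basket on the nuclear side of the nuclear pore complex, the channel through which proteins and RNA pass between nucleus and cytoplasm. It also binds chromatin, and the study connects it to CTCF and cohesin, which fold chromosomes into loops and domains. An shRNA is processed into a small guide RNA that directs the destruction of matching mRNAs. Different hairpins against the same mRNA share their intended target but not their other partly matching RNAs, and each culture is also handled, infected and selected on its own. ES cells keep up a pluripotency network around Pou5f1, Sox2 and Nanog, whereas the feeder fibroblasts make collagens and other matrix proteins that ES cells make little of.

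In KD-1, 85258834 reads were counted on genes, and in KD-2 69839336 reads. Reads outside of any counted gene made up 24.1% of the KD-1 library and 21.5% of the KD-2 library, and the exact Clopper-Pearson 95% intervals of these and the other shares of reads given here reached at most 0.0085 percentage points to either side, for counting error only. Most markers of ES cells were abundant in both libraries. Pou5f1, the central pluripotency factor, had 235 RPKM in KD-1 against 210 RPKM in KD-2 (RPKM, reads scaled by exon length and by all reads on genes). Nanog had 323 and 251 RPKM. On the same scale Sox2 (161 and 166 RPKM) and Utf1 (2.29 and 3.59 RPKM) were higher in KD-2, and Utf1 was not abundant. All 10 fibroblast markers fixed for this check were detected in both libraries, with 0.447 to 30.5 RPKM in KD-1 and 1.34 to 166 RPKM in KD-2, and each of them was higher in KD-2. Of the markers of blood and endothelium, Ptprc had 6 reads in KD-1 and 12 in KD-2, Cdh5 had 5 and 3, and Hbb-bt had no read. Cd68 had 2.38 and 2.75 RPKM and Kdr 0.759 and 0.769 RPKM, which is above the lowest of the fibroblast markers in KD-1. Pecam1, which ES cells also express, had 3699 and 1903 reads.

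Of the 12862 genes, 3365 differed by more than 1.5-fold (26.2%). KD-1 was higher for 1410 genes (11.0%) and KD-2 for 1955 genes (15.2%). Ratios are given as the log2 of scaled reads in KD-1 over KD-2, so that a negative value means higher in KD-2. The median over all 12862 genes was 0.13 after upper-quartile scaling, with quartiles of -0.28 and 0.40. Ratios of gene groups are best read against this median and against the read level of their genes. The median was 0.05 among genes averaging 100 to 300 reads and 0.33 among those above 10000 reads. The tail towards KD-2 was longer. More than 2-fold higher were 155 genes in KD-1 and 941 genes in KD-2, and more than 4-fold higher were 6 and 89 genes. Under the other 3 scalings the median of all genes lay between -0.04 and 0.01, KD-1 was higher for 577 to 758 genes, and KD-2 for 2367 to 2582 genes. KD-1 then made up 18.3% to 24.3% of the calls, against 41.9% with upper-quartile scaling. The genes called higher in KD-2 took 5.31% of the reads on genes in KD-1 against 13.6% in KD-2. Those called higher in KD-1 took 15.7% and 10.6%.

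**Figure D1:**
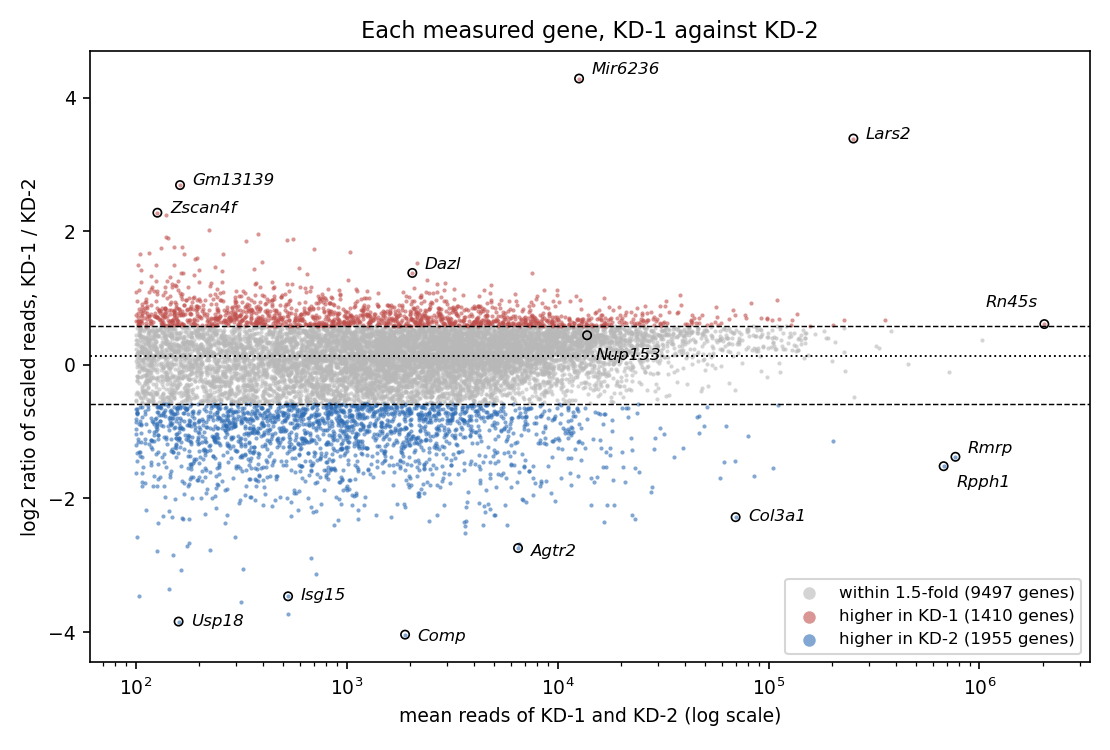
Each point is one of the 12862 measured genes, with the mean reads of both libraries on a log axis and the log2 ratio of upper-quartile-scaled reads, KD-1 over KD-2, on the vertical axis. Dashed lines mark 1.5-fold and the dotted line the median of 0.13; the points reach down to -4.04 (Comp) and up to 4.29 (Mir6236), and 941 genes lie below -1 against 155 above 1.

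Nup153 itself, the target of both hairpins, lies on chromosome 13 from 46679905 to 46727940 (GRCm38, minus strand). It had 16451 reads in KD-1 against 11126 reads in KD-2. Its log2 ratio was 0.44, a 1.36-fold higher level in KD-1 that stayed within the 1.5-fold limit. The 95% counting interval of this ratio, an exact interval given the summed reads, ran from 0.41 to 0.48. The list of nuclear pore genes, Nup153 among them, had 33 measured members, and Nup153 was the one at its median. Of the 33, 31 lay above the median of all genes, and 4 were called higher in KD-1 against 0 in KD-2 (11.0% and 15.2% of all genes). Under each of the other scalings 2 were called. Nup210, a pore membrane glycoprotein, had 4211 and 2188 reads (0.82). Pom121, another membrane nucleoporin, had 1288 and 677 reads (0.81), and its exons overlap those of Nsun5 on the opposite strand. Senp1, a SUMO protease that docks at the pore basket, had 2089 and 1201 reads (0.68). Nup214 of the cytoplasmic filaments had 3855 and 2265 reads (0.65). Exons of Senp1 overlap Pfkm on the opposite strand, and those of Nup214 overlap Fam78a on the opposite and Mir7674 on the same strand. Tpr, the other large basket protein, had 58406 and 38531 reads (0.48).

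CTCF and the cohesin genes also lay on the KD-1 side. Ctcf, the zinc finger protein that stops cohesin at domain borders, had 23476 reads in KD-1 against 16297 in KD-2 (log2 ratio 0.41, not called). Smc3 and Smc1a, the long arms of the cohesin ring, had ratios of 0.51 and 0.59, with 34377 and 22213 reads for Smc3 and 38244 and 23397 reads for Smc1a. Rad21, the subunit that closes the ring, differed most. It had 17360 reads in KD-1 against 8119 in KD-2, a ratio of 0.98. The meiotic subunits Smc1b (0.73) and Stag3 (0.69) and the regulator Pds5b (0.71) were called as well. All 17 measured genes of the CTCF and cohesin list lay above the median of all genes, with a list median of 0.51. Of the 17, 6 were called higher in KD-1 against 0 in KD-2 (11.0% and 15.2% of all genes). Among all genes, those averaging 3000 to 10000 reads had a median of 0.18 and those above 10000 reads 0.33. The CTCF and cohesin genes are poor in GC (median 42.4% of exon bases). With the median of each GC decile subtracted 1 call remained, as did 1 to 3 under the other scalings.

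Genes of the extracellular matrix were on the KD-2 side. Of 25 fibroblast genes measured, 24 were called higher in KD-2 and 0 in KD-1, against 15.2% of all genes called higher in KD-2, and their median ratio was -1.44. Summed reads of the fibroblast list were 0.311% of the reads on genes in KD-1 against 0.845% in KD-2. In a bulk library, more cells of a type and more RNA per cell cannot be told apart. Col3a1, the type III collagen chain, was the most abundant of the collagens in KD-2, with 25523 reads in KD-1 against 114064 in KD-2, a 4.86-fold difference (log2 ratio -2.28, counting interval -2.30 to -2.26). Postn (periostin), a matrix protein of connective tissue, had 1902 and 11277 reads (-2.69). Loxl1, which cross-links elastin, had 1236 and 6052 reads (-2.41), and Lum (lumican), which spaces collagen fibrils, had 1871 and 8174 reads (-2.25). The members were spread over a wide range. Fn1 (fibronectin), at 92486 and 129506 reads, had a ratio of only -0.61, and Fbln1 (fibulin-1) was the exception of the list, with 547 and 355 reads and a ratio of 0.50.

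Lists of matrix components gave the same direction with a few exceptions of their own. Among 19 measured collagen genes, 16 were called higher in KD-2 (median -1.55). Fibril-forming and fibril-associated chains led, with Col11a1 at -2.35 (1259 and 5918 reads), Col12a1 at -2.25 (8426 and 36759 reads) and Col1a2 at -2.06 (1542 and 5908 reads). Col4a1, a chain of basement membranes, was within the limit at -0.10, as was Col18a1 at 0.05. Of 8 measured small leucine-rich proteoglycans, 7 were called higher in KD-2 (median -2.01). Prelp was at -2.84 (39 and 260 reads), Ogn at -2.52 (1157 and 6096 reads) and Aspn at -2.24 (513 and 2237 reads), while Omd (osteomodulin) was at 0.55 with 13915 and 8738 reads. The other 2 members of this list were below the minimum.

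Among 26 measured matricellular and elastic fibre genes, 22 were called higher in KD-2 (median -1.23). Comp (cartilage oligomeric matrix protein, chromosome 8 from 70373558 to 70382066) had the most negative ratio of all 12862 genes. It had 234 reads in KD-1 against 3547 in KD-2, which is 16.4-fold higher in KD-2 (log2 ratio -4.04, counting interval -4.24 to -3.85). Eln, the elastin gene, had 60 and 272 reads (-2.29). Spp1 (osteopontin), the most abundant member by reads, had a ratio near 0, with 477108 and 435531 reads (0.01). Matrix proteases and their inhibitors followed, with 13 of 16 called higher in KD-2 (median -1.0). Adamts1, which cleaves proteoglycans, had 6924 and 27315 reads (-2.10). Mmp23 was at -1.75, Adamts5 at -1.69, and the inhibitor Timp3 at -1.70. The collagenase gene Mmp13 was at 0.34 and the stromelysin gene Mmp3 at -0.08. With GC decile medians subtracted, 24 fibroblast genes, 16 collagen genes, 7 small leucine-rich proteoglycan genes, 22 matricellular genes and 13 protease genes were called higher in KD-2.

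The other genes with the most negative ratios were of several kinds. Agtr2, the type 2 angiotensin receptor, had 1812 and 11163 reads (-2.74). Cxcl12, a chemokine of stromal cells, had 1501 and 7304 reads (-2.40). Sdc2, a heparan sulfate proteoglycan of the cell surface, had 1974 and 9576 reads (-2.40). Ppap2b, a lipid phosphatase, had 5776 and 27253 reads (-2.36). Olfml2a, an olfactomedin-like secreted protein, had 18 and 188 reads (-3.47). Scand1, a small SCAN domain protein, had 53 and 575 reads (-3.55), and its exons overlap Cnbd2 on the opposite strand, so that reads of both cannot be told apart here.

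**Figure D2:**
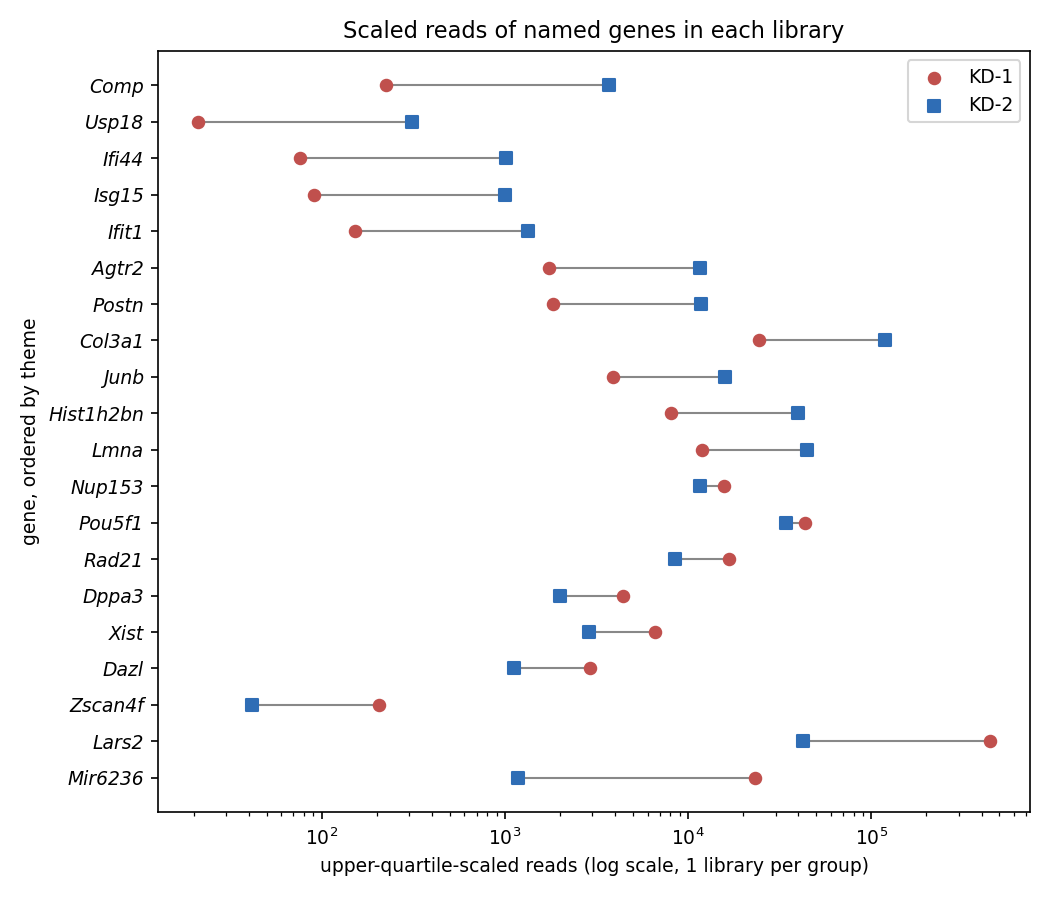
Upper-quartile-scaled reads of named genes in KD-1 (circles) and KD-2 (squares) on a log axis, with 1 library per group and a line joining the pair. The matrix, interferon, histone and lamina genes at the top lie higher in KD-2, Nup153 (15781 against 11598 scaled reads) and Pou5f1 lie close together, and the genes from Rad21 down lie higher in KD-1.

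Of the list of smooth muscle contractile genes and targets of the transcription factor SRF, the majority was called higher in KD-2. SRF binds the CArG box, an A- and T-rich motif, and drives actin and myosin genes in smooth muscle and in activated fibroblasts. Of 19 measured genes, 12 were called higher in KD-2 and 0 in KD-1 (median -1.08). Acta2, the smooth muscle actin gene, had 1303 and 6031 reads (-2.33). Cnn1 (calponin) had 132 and 493 reads (-2.02), Actg2 79 and 292 reads (-2.0), and Myh11, a smooth muscle myosin, 121 and 408 reads (-1.87). The cytoskeletal genes that most cells use differed less. Actb was at -0.48 with 221332 and 284377 reads, Actg1 at -0.09, Flna at -0.27 and Myh9 at -0.10, and Srf itself was at -0.53. The promoter windows, from RefSeq on GRCm38.p6, hold 250 bases before and 50 after each gene start. A CArG box was present in 5 of the 15 members with a window (33.3%), and in 153 of 10015 measured genes (1.53%). The share was 33.3% both among the members called and among those not called. The windows of 3 called members are shown around the box, which is in capitals:
Myl9, plus strand, chr2:156775263-156775352: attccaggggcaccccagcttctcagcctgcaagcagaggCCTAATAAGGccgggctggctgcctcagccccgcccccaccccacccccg
Cnn2, plus strand, chr10:79988504-79988593: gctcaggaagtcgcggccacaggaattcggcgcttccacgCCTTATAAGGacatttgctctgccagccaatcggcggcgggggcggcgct
Vcl, plus strand, chr14:20929148-20929220: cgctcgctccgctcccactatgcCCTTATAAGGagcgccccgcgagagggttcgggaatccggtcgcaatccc
Their ratios were -1.67 for Myl9 (myosin light chain, 680 and 1997 reads), -1.36 for Cnn2 (3543 and 8378 reads) and -0.74 for Vcl (vinculin, 13106 and 20125 reads).

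Interferon-stimulated genes gave some of the most negative ratios. These genes are switched on when interferon receptors activate transcription factors that bind the interferon-stimulated response element (ISRE), and their products act against viruses. Of 44 genes on the list, 33 were measured and 11 were below the minimum. KD-2 was higher for 23 of the 33 and KD-1 for 0, with a median of -1.12. Usp18, which removes ISG15 from proteins, had 22 reads in KD-1 against 297 in KD-2 (-3.84, counting interval -4.57 to -3.25). Ifi44 had 79 and 970 reads (-3.73). Isg15, a ubiquitin-like modifier, had 94 and 960 reads, 11.0-fold higher in KD-2 (-3.46). The RNA-binding proteins Ifit1 and Ifit3 had ratios of -3.13 (158 and 1274 reads) and -2.89 (172 and 1179 reads), and their relative Ifit3b had a ratio of -3.05 (74 and 569 reads). The GTPase genes Gbp3 and Iigp1, among the 12 most negative genes, had 37 and 290 reads (-3.07) and 27 and 260 reads (-3.36). Of these genes, Usp18, Ifi44, Isg15, Ifit3b, Gbp3 and Iigp1 had under 100 reads in KD-1 and reached the minimum only through KD-2. Ifit and Gbp genes are families of similar copies, and how reads were split among the copies is uncertain.

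The interferon group was not uniform. Genes of the signalling chain differed less than the genes at its end, with Stat2 at -1.19 and Irf9 at -0.80. Sensors of viral RNA differed from each other, with Ifih1 at -1.74 and Ddx58 at -0.40. B2m and Tap1, which serve antigen presentation, were at -1.26 and -1.67. Several members were within the limit, among them Xaf1 at -0.06 (3472 and 3336 reads), Parp14 at -0.06, Eif2ak2 (PKR) at -0.26, Adar at 0.30, Samhd1 at 0.46 and Oas1a at 0.51 (1603 and 1035 reads). 

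The ISRE core searched was GAAANNGAAA on both strands, where matches may overlap each other. It was present in the promoter windows of 16 of 27 measured interferon-stimulated genes (59.3%) and of 358 of 10015 measured genes (3.57%). It was present in 61.1% of the 18 members called higher in KD-2 that have a window and in 55.6% of the 9 others. A match describes the letters only. The 4 called members with the most negative ratios among those with a match are shown, with every match in capitals (a match on the opposite strand appears as its reverse complement):
Isg15, minus strand, chr4:156200835-156200924: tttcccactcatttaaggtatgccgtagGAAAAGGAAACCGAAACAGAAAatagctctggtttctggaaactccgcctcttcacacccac
Ifit1, plus strand, chr19:34640764-34640853: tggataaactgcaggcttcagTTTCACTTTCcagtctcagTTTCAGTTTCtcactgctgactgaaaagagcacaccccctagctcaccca
Gbp3, plus strand, chr3:142559965-142560054: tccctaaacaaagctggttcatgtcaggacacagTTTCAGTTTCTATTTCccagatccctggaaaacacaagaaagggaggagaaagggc
Ifit3, plus strand, chr19:34583367-34583456: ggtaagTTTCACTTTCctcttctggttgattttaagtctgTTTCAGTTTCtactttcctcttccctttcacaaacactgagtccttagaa
The window of Isg15 held 3 matches and the windows of Ifit1, Gbp3 and Ifit3 held 2 each. The last match began 66 bases before the start of Isg15, 85 before that of Ifit1, 39 before that of Gbp3 and 122 before that of Ifit3.

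Chemokine and growth factor genes were called in 1 direction. Of 20 measured chemokine and cytokine genes, 11 were called higher in KD-2 and 0 in KD-1 (median -0.63). After Cxcl12 came Csf1, the macrophage growth factor (-1.46, 1350 and 3410 reads), Il1rl1, the receptor of IL-33 (-1.45), and Cxcl5 (-1.43). Lif, the cytokine that keeps ES cells undifferentiated, was at -0.07 with 529 and 510 reads, and Il6 was at 0.45. Of 10 measured genes of insulin-like growth factors, their receptors and binding proteins, 7 were called higher in KD-2 and 0 in KD-1 (median -1.03). Igfbp6 was at -2.06, Igf2 at -1.67 with 7782 and 22852 reads, Igf1 at -1.39 and Igf2r at -1.09. Igfbp2 stood on the other side at 0.49.

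Among 17 measured genes that tell mesenchymal from epithelial cells, 9 were called higher in KD-2 and 4 in KD-1, and the division followed the kind of gene. The mesenchymal genes Cdh11 (-1.58), Twist1 (-1.58), Vim (-1.54, 57280 and 153267 reads) and Tgfbi (-1.53) were higher in KD-2. The epithelial genes Esrp1 (0.91), Ocln (0.76), Cdh1 (0.60, 18356 and 11151 reads) and Krt8 (0.59) were higher in KD-1, and 2 of these 4 were called under the other scalings.

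Immediate early genes, which respond within minutes to growth factors or stress, had 22 measured members. KD-2 was higher for 16 and KD-1 for 0, with a median of -0.74. Junb, of the AP-1 family, had the most negative ratio, and Egr3 came next, before Jund and Jun. Junb had 4052 and 15273 reads (-2.03), though its exons overlap Prdx2 on the opposite strand. Jund had 426 and 1170 reads (-1.58) and Jun 1918 and 5244 reads (-1.57), and Egr3 had 66 and 195 reads (-1.68). Fos was at -0.99. Egr1 (2442 and 1647 reads, 0.45) and Myc (1493 and 1070 reads, 0.36) were on the KD-1 side within the limit. The AP-1 motif TGANTCA was found in the promoter windows of 0 of 17 immediate early genes, of 2 of 10 matrix protease genes and of 600 of 10015 measured genes (5.99%). Both protease genes with a match were among the 3 not called, and 0 of the 7 called ones had it.

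Replication-dependent histone genes were on the KD-2 side. These genes are expressed in S phase and their mRNAs end in a stem-loop in place of a poly(A) tail, so that they are seen in total RNA libraries. Of 57 measured genes, 42 were called higher in KD-2 and 0 in KD-1 (median -1.03). Together the list took 0.510% of the reads on genes in KD-1 against 0.915% in KD-2. The most negative were Hist1h2bn with 8387 and 38056 reads (-2.30), Hist1h4j with 1868 and 7687 reads (-2.16), Hist1h2bp with 708 and 2762 reads (-2.08) and Hist1h2bg with 2913 and 10859 reads (-2.02). The 6 measured linker histone genes were within the limit, from -0.56 for Hist1h1c to 0.52 for Hist1h1t, with Hist1h1a at 0.34 (47975 and 34903 reads). The abundant core histone gene Hist2h2bb was also within it at 0.54 with 97877 and 61903 reads. Histone genes are similar copies of each other, and the division of reads among them is uncertain. They are also rich in GC (median 57.2%), and with the median of each GC decile subtracted 40 were called higher in KD-2 and 1 in KD-1.

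DNA replication genes, which share the S phase with the histone genes, lay on the KD-1 side. Of 30 measured, 29 lay above the median of all genes, 4 were called higher in KD-1 (against 11.0% of all genes) and 0 in KD-2, and the median was 0.48. Pola1, the catalytic subunit of DNA polymerase alpha, led with 32829 and 17672 reads (0.77), followed by Rfc1 (0.62), Pole (0.61) and Gins1 (0.61). Under the other scalings 1 of them was called. Of 28 cell cycle genes, 6 were called higher in KD-1 and 4 in KD-2, against 11.0% and 15.2% of all genes. The 4 were the D-type cyclins Ccnd2 (-1.61, 6021 and 16944 reads) and Ccnd1 (-1.10, 15068 and 29713 reads) and the inhibitors Cdkn2a (-1.25) and Cdkn2b (-1.19), whereas the mitotic genes Ccnb1 (0.64) and Mki67 (0.63) were higher in KD-1. None of the 6 was called under the other scalings.

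Among 14 lamina and LINC complex genes, 3 were called higher in KD-2 and 1 in KD-1, against 15.2% and 11.0% of all genes. Lmna, the A-type lamin of differentiated cells, had 12368 and 42786 reads (-1.91), Sun2 had 1946 and 3943 reads (-1.14), and Syne1 was at -0.66. Lmnb1, the B-type lamin that ES cells use, was at 0.34, and Lbr (lamin B receptor) at 0.60, a call lost under the other scalings. Of 29 Polycomb genes, 6 were called higher in KD-1 (11.0% of all genes) and 4 in KD-2 (15.2%), with a median of 0.38. Of PRC2, the complex that methylates histone H3, Suz12 at 0.75 (26942 and 14757 reads), Mtf2 at 0.72 and Ezh2 at 0.63 were called, whereas Jarid2 at 0.53, Eed at 0.38 and Rbbp7 at 0.15 were within the limit. Of PRC1 genes, Pcgf2 was at 1.07, Cbx7 at 0.75 and Cbx8 at -0.72. Under the other scalings 1 to 4 Polycomb genes were called higher in KD-1, and with GC decile medians subtracted 2.

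The 2 genes with the highest ratios towards KD-1 stood far from all others. Mir6236, a miRNA gene on chromosome 9 from 110281287 to 110281409, had 24133 reads in KD-1 against 1136 in KD-2. That is a 19.5-fold difference, with a log2 ratio of 4.29 and a counting interval from 4.20 to 4.38. Lars2, the mitochondrial leucyl-tRNA synthetase on chromosome 9 from 123366927 to 123462666, had 464039 and 40743 reads, a 10.5-fold difference (3.39, counting interval 3.38 to 3.40). Lars2 alone took 0.544% of the reads on genes in KD-1 against 0.0583% in KD-2. Rn45s, the precursor of the ribosomal RNAs that the depletion kit removes, had 2533951 reads in KD-1 against 1525879 in KD-2 (0.61), and was 2.97% and 2.18% of the reads on genes. Whether depletion of ribosomal RNA has a part in the values of Mir6236 and Lars2 was not tested.

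MicroRNA genes as counted here are short windows on longer RNAs, since 50 bp reads of total RNA do not sample mature miRNAs. Of 19 measured, 13 were called higher in KD-1 against 2 in KD-2 (median 0.66). With the other scalings 7 to 9 were called higher in KD-1, and with GC decile medians subtracted 8. RefSeq mature sequences were matched for 18 of the 19 genes, and those of Mir6236 and of the 3 measured genes with a shared seed are shown, with the seed, bases 2 to 8, in capitals:
mmu-miR-6236: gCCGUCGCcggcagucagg
mmu-miR-17-5p: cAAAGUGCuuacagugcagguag
mmu-miR-20a-5p: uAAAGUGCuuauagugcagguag
mmu-miR-93-5p: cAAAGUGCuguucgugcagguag
The seed of mmu-miR-6236 was not found in the other matched genes. Mir17, Mir20a and Mir93 share the seed AAAGUGC and had ratios of 0.61 (128 and 77 reads), 0.73 (402 and 223 reads) and 1.10 (140 and 60 reads). Mir93 lies inside Mcm7, whose ratio was 0.54. Mir29a (74 and 138 reads, -1.01) and Mir18 (116 and 177 reads, -0.73) were higher in KD-2. Mir18 lies beside Mir17, Mir19a and Mir20a on chromosome 14, so that their counts need not be independent, yet it went the other way. Mir19a, which overlaps Mir17hg on the same strand, was at 1.09 (192 and 83 reads).

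Copies of Zscan4, which mark the 2-cell-like state, were higher in KD-1. A small share of cells in an ES culture passes through this state, in which genes of the 2-cell embryo such as the Zscan4 family are switched on. Of 19 genes on the list, 7 were measured, 12 were below the minimum and 1 of these had no read. KD-1 was higher for 4 of the 7, all of them Zscan4 copies that reached the minimum only through KD-1, and KD-2 for 0. Zscan4f had 213 and 40 reads (2.28), Zscan4a 234 and 45 reads (2.25), Zscan4c 363 and 82 reads (2.02) and Zscan4d 261 and 70 reads (1.77). The copies of Zscan4 are nearly identical, so these are not independent values. The members below the minimum with at least 50 summed reads gave ratios from 0.83 (Usp17lc) to 2.18, with Zscan4b at 2.06 (124 and 27 reads), Tmem92 at 2.01 (76 and 17 reads) and AF067061 at 2.18 (51 and 10 reads). The other 3 measured members were within the limit, with Eif1a at 0.08 (28287 and 24697 reads), Usp17la at 0.39 and Zbed6 at 0.44.

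The other genes with the highest ratios had low counts, and Gm13139, Trim43a and S100a8 reached the minimum only through KD-1. Gm13139 had 284 and 40 reads (2.69). Gm2022 had 611 and 144 reads (1.96), Gm8300 532 and 135 reads (1.85), Trim43a 223 and 54 reads (1.92), and Spic, an ETS family transcription factor, 896 and 222 reads (1.89). S100a8, a calcium-binding protein, had 229 and 56 reads (1.90). Aurkc, the Aurora kinase of germ cells, had 836 and 209 reads (1.88). Among genes averaging 1000 reads or more, those after Mir6236 and Lars2 included Arl14epl with 1622 and 461 reads (1.69), Cd84 with 3260 and 1046 (1.52), Dazl with 3022 and 1070 (1.38), Pramel7 with 3471 and 1319 (1.28) and Ankrd45 with 1476 and 561 (1.27).

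Germline and meiosis genes included Dazl, an RNA-binding protein of germ cells. Of 25 measured, 8 were called higher in KD-1 against 1 in KD-2, beside 11.0% and 15.2% of all genes (median 0.49). Stk31 had 2627 and 1178 reads (1.04), Dmrt1 136 and 75 reads (0.74) and Sycp1, of the synaptonemal complex, 1417 and 784 reads (0.73). Ddx4 was at -0.11 with 1639 and 1631 reads, and Piwil2, a PIWI protein, was the gene higher in KD-2 (-0.60, 1148 and 1606 reads). Under the other scalings 2 to 4 were called higher in KD-1, and with GC decile medians subtracted 4, against 2 in KD-2.

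Pluripotency genes were on the KD-1 side as well. Of 32 measured genes, 28 lay above the median of all genes, and the list median was 0.49. Of the 32, 13 were called higher in KD-1 against 0 in KD-2 (11.0% and 15.2% of all genes). Dppa3 had 4567 and 1912 reads (1.14), Lefty2, an inhibitor of Nodal, 52751 and 23447 reads (1.05), Lefty1 13779 and 6605 reads (0.94) and Dppa5a 111186 and 54008 reads (0.92). Zfp42 (Rex1), a marker of the naive state, had 99896 and 54998 reads (0.74). The core factors differed less, with Nanog at 0.53, Pou5f1 at 0.33 and Sox2 at 0.13. Klf4 was at -0.10, and Utf1 was at -0.48 with 240 and 308 reads. Under the other scalings 6 to 10 of these genes were called higher in KD-1 against 1 in KD-2, and with GC decile medians subtracted 7 and 0.

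**Figure D3:**
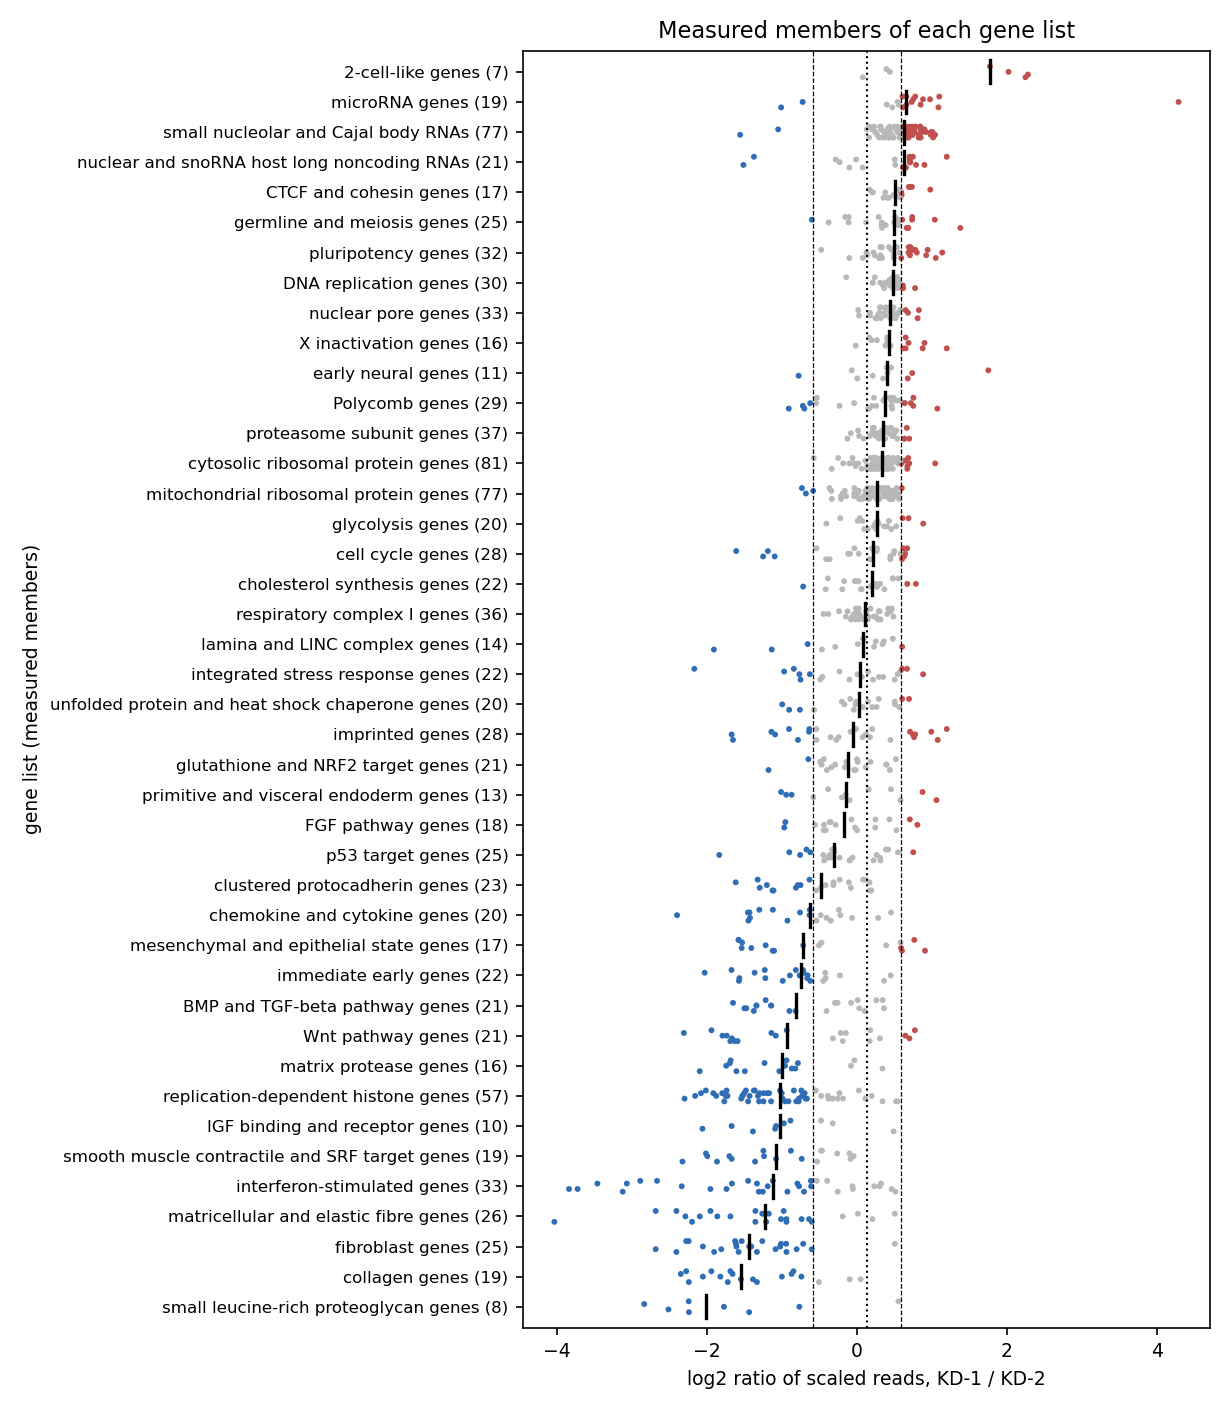
Each point is the log2 ratio (KD-1 over KD-2) of a measured member of a gene list with at least 7 measured members, and the black bar is the list's median; red points are called higher in KD-1, blue points higher in KD-2. Matrix, interferon, contractile and histone lists lie left of the dotted median of all genes (0.13) with medians from -2.01 to -1.0, whereas lists of pluripotency, replication and nuclear pore genes lie to its right with medians from 0.44 to 0.49.

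The calls of noncoding RNAs of the nucleus varied with the scaling. Of 77 measured small nucleolar and Cajal body RNAs, which guide the modification of ribosomal and spliceosomal RNAs, 40 were called higher in KD-1 against 2 in KD-2, and 75 lay above the median of all genes (list median 0.63). Snord93 had 548 and 245 reads (1.04) and Snora30 332 and 151 reads (1.01). Scarna2 (610 and 1656 reads, -1.56) and Snord49b (462 and 883 reads, -1.05) were higher in KD-2. Most snoRNAs lie in introns of other genes, and reads of unspliced host RNA can be counted on them. Of 21 long noncoding RNAs, among them hosts of snoRNAs, 12 were called higher in KD-1 against 2 in KD-2 (median 0.62), and 14 lay above the median of all genes and 7 below it. Gas5 had 48299 and 25767 reads (0.79), Kcnq1ot1 56150 and 30833 (0.74) and Snhg1 22779 and 12882 (0.70), whereas Malat1 was at -0.10 with 717440 and 708738 reads and Neat1 at -0.23. The 2 exceptions were the RNA components of RNase MRP and RNase P. Rmrp had 454056 and 1084311 reads (-1.38) and Rpph1 372259 and 980056 reads (-1.52), and together they were 0.969% of the reads on genes in KD-1 against 2.96% in KD-2. Calls of the small RNAs on the KD-1 side fell to 19 to 26 under the other scalings and to 17 with GC decile medians subtracted, and those of the long noncoding RNAs to 3 to 7 and to 3.

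Genes of protein synthesis and turnover differed little, with shares called higher in KD-1 near or below the 11.0% of all genes. Of 81 cytosolic ribosomal protein genes, 7 were called higher in KD-1 against 0 in KD-2 (median 0.34), led by Rpl39l at 1.04 (4929 and 2203 reads), and then Rpl36a (0.70), Rps27a (0.68) and Rps4x (0.67). Of 77 mitochondrial ribosomal protein genes, 1 was called higher in KD-1 (Mrpl42, 0.60) and 3 in KD-2 (Mrpl52, -0.74; Mrpl57, -0.68; Mrps6, -0.59), with a median of 0.27. Of 37 proteasome genes, 4 were called higher in KD-1 against 0 in KD-2 (median 0.35), with Psmb11 at 0.70, Psma8 at 0.66, Psma1 at 0.63 and Psmd11 at 0.63. Of 36 genes of respiratory complex I, 0 passed the limit (median 0.10), and Ndufa5 had the highest ratio at 0.48. Of 20 glycolysis genes, 3 were called higher in KD-1 (against 11.0% of all genes) and 0 in KD-2 (median 0.26), with Pfkp at 0.88, Pgk1 at 0.69 and Bnip3 at 0.61. Under the other scalings 1 ribosomal, 0 mitochondrial ribosomal, 0 proteasome and 1 glycolysis gene remained above the limit on the KD-1 side.

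Genes of chromosome X were shifted towards KD-1. The 511 measured X-linked genes had a median ratio of 0.35, and 123 of them (24.1%) were called higher in KD-1 and 43 (8.41%) in KD-2, while the autosomes had a median of 0.12 with 10.4% and 15.5% called. The medians of the 19 autosomes lay between 0.04 (chromosome 19) and 0.21 (chromosome 6). An interval of order statistics for the X-linked median ran from 0.30 to 0.40. That interval treats genes as independent draws and, with 1 library per knockdown, does not cover the spread between cultures. The X-linked median exceeded that of all genes by 0.23, and by 0.21 at a minimum of 1000 reads. The decile of genes with the lowest GC content held 116 X-linked genes and the decile with the highest 13, and with GC decile medians subtracted the difference was 0.15. Within each of the 10 GC deciles the X-linked median exceeded the autosomal one, by 0.05 to 0.43. Of 16 genes of X inactivation and its escape, 7 were called higher in KD-1 against 0 in KD-2 (median 0.43), and 3 under each of the other scalings and with GC decile medians subtracted. Xist, the RNA that coats the inactive X, had 6887 and 2766 reads (1.20), and its antisense partner Tsix 2172 and 1072 reads (0.90), which overlap each other so that their reads cannot be told apart where strand was not counted. Huwe1, a ubiquitin ligase, had 75062 and 37674 reads (0.87), and Pgk1 125563 and 71821 reads (0.69).

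Genes of chromosome Y were detected, although the ES line is labelled female. Ddx3y had 2853 reads in KD-1 against 5792 in KD-2 (-1.14), Kdm5d 497 and 985 (-1.11), Uty 620 and 1077 (-0.92) and Eif2s3y 1432 and 2151 (-0.71), so that 4 of the 5 measured Y-linked genes were called higher in KD-2. Uba1y, at 198 and 107 reads, was the fifth and was called higher in KD-1 (0.77). The sources used here do not give the sex of the feeder embryos. The part of feeder cells in these ratios was not tested.

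**Figure D4:**
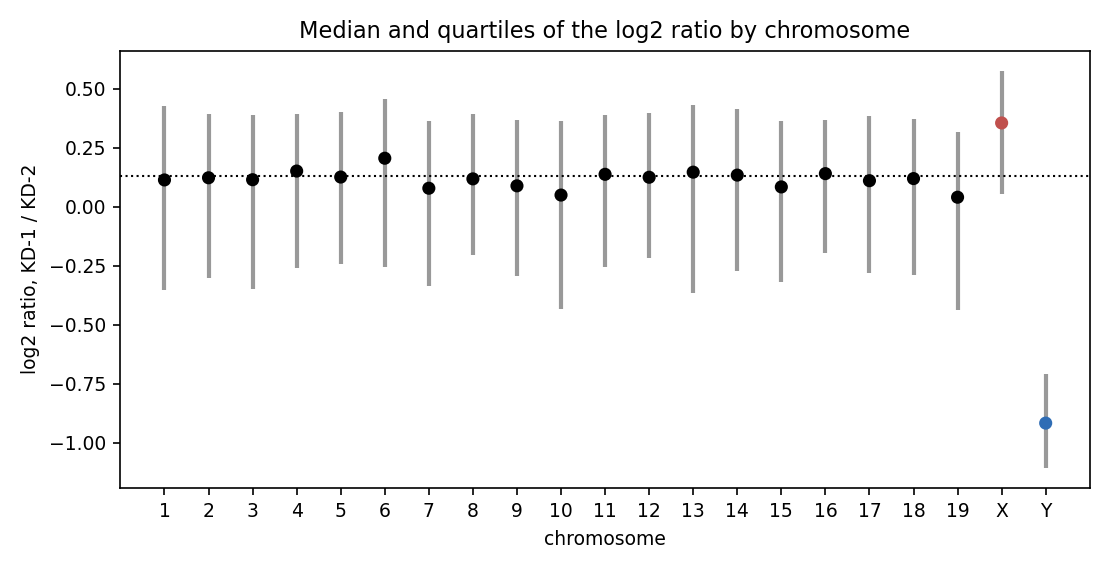
Median (point) and quartiles (line) of the log2 ratio, KD-1 over KD-2, for the measured genes of each chromosome, with the median of all genes as a dotted line. The 19 autosomes lie between 0.04 and 0.21, chromosome X (511 genes) at 0.35 and chromosome Y (5 genes) at -0.92.

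The ratio moved with the GC content of a gene's exons. Over deciles of the 12792 measured genes with an annotation, the median ratio fell in every step from 0.32 in the decile with the lowest GC content (median 39.5%) to -0.25 in the decile with the highest (median 59.3%). The share called higher in KD-1 was 19.3% in the lowest decile and 4.22% in the highest, and the share called higher in KD-2 was 8.52% and 29.7%. This trend across genes is a description, since genes are not independent replicates. Exon length showed no comparable trend, with medians of 0.08 to 0.19 over its deciles. The level of a gene mattered too. Among genes that averaged 100 to 300 reads, 16.3% were called higher in KD-1 against 21.7% in KD-2, with a median ratio of 0.05. Among genes above 10000 reads the shares were 10.8% and 7.02%, with a median of 0.33. The 8 small leucine-rich proteoglycan genes, which were far on the KD-2 side, are poor in GC (median 39.6%), and their median was -2.14 with GC decile medians subtracted. The part of library preparation in the GC trend was not tested.

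**Figure D5:**
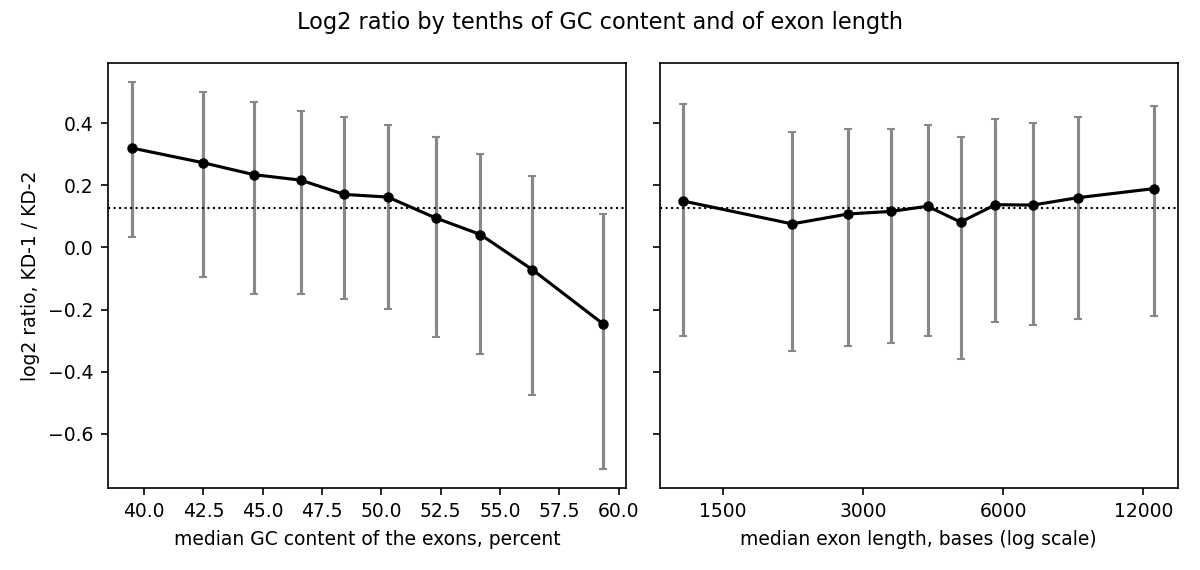
Median (point) and quartiles (bars) of the log2 ratio, KD-1 over KD-2, in deciles of measured genes by GC content of the exons (left) and by exon length on a log axis (right). The medians fall from 0.32 to -0.25 along GC content and stay between 0.08 and 0.19 along exon length; the dotted line is the median of all genes.

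The minimum of 100 reads left out 7999 genes that had a read, and a gene with under 100 reads in either library, such as Olfml2a, Scand1, Prelp or Eln, passed it only through the library where it was higher. Just inside were Csf3r (115 and 85 reads, 0.31) and Abhd14b (69 and 131 reads, -1.04), both with a mean of 100 reads, and just outside was Cuedc1 (68 and 131 reads, -1.06). Over all depths, 2248 of the 3365 called genes had an interval that lay wholly past 1.5-fold, 741 of them towards KD-1 and 1507 towards KD-2.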

How the data were processed

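Total RNA was depleted of ribosomal RNA and sequenced as 50 bp single-end reads by the authors. Per the labels they trimmed reads with Trim Galore 0.4.1, mapped them to mm10 (GRCm38) with TopHat2 2.1.1 and counted with HTSeq, whereas the paper's methods name featureCounts and a mapping quality above 30. The deposited values are raw counts of reads per gene and end with lines of totals for uncounted reads. The strand setting is not given in the sources used here. The lines of totals were left out, libraries were scaled by upper quartile with edgeR 4.0.16 (R 4.3.3) over KD-1 and KD-2 alone, and log2 ratios used a pseudocount of 0.5 scaled reads (Python 3.11.15, pandas 2.3.3, scipy 1.17.1). With 1 library per group no test was run, and the exact Clopper-Pearson 95% intervals cover counting error only. Ratios and calls were tested on simulated reads with counting error only, scaled by known library totals. That simulation does not test the upper-quartile scaling or any spread between cultures. Of the 24421 genes, 23376 matched GENCODE M21 by symbol, 651 by an older symbol and 394 did not match. Exons of 2937 measured genes overlap another counted gene.

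The comparison, its members and the 48 gene lists were chosen with earlier results of these data known. Genes named were the 12 with the highest ratio in each direction, the 8 in each direction among genes averaging 1000 reads or more, up to 4 members of each list with the largest ratio, Nup153, Ctcf, Smc1a, Smc3, Rad21 and cell type markers. Further members are named to show the spread within a list and were picked with their values known. Some genes that the rule names are not reported here. Alternatives were TMM, size factors of DESeq2 1.42.0, library totals, a 2-fold limit, minimum means of 10 and 1000 reads, no filter, a pseudocount of 5 reads and an interval past the limit. Subtraction of GC decile medians, removal of chromosomes X and Y and removal of 8 lists were chosen after the data were seen.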

Additional observations from a re-analysis of the deposited data

How the results depend on the processing

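The number of genes called moved with most settings. With a 2-fold limit, 1096 genes were called, 155 higher in KD-1 against 941 in KD-2. With a minimum mean of 10 reads 5091 were called and 2373 were higher in KD-1, with a minimum of 1000 reads 1642 were called (735 and 907), and without a filter 8084 (4023 and 4061). KD-1 was higher for 691 genes with TMM, 758 with DESeq2 size factors, 577 with library totals, 741 where the counting interval had to lie past the limit, and 715 after subtraction of GC decile medians. TMM, size factors and totals move every ratio towards KD-2 by the same amount, so that a call higher in KD-2 cannot be lost under them, and of the 1955 such calls 1805 remained after the GC subtraction. Removal of chromosomes X and Y or of the 8 matrix, muscle, growth factor and interferon lists changed the total by less than 1.5 times, and the latter removed 0 of the 1410 calls higher in KD-1. The difference of chromosome X from all genes moved from 0.23 to 0.15 after the GC subtraction and the cause was not tested. Medians of the integrated stress response, chaperone, lamina and complex I lists lay near 0 and changed sign with the scaling. No paired analysis was possible because each group has 1 library. Depth limits the genes near 100 reads most, where counting intervals are widest and ratios close to the limit cannot be placed on one side of it.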

Other observations

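Of 21 measured Wnt pathway genes, 11 were called higher in KD-2 and 3 in KD-1, against 15.2% and 11.0% of all genes (median -0.94). Among the 11 were the ligand Wnt10a at -2.31 (60 and 276 reads in KD-1 and KD-2) and the secreted Dkk3 at -1.80 (788 and 2520 reads). The receptors Fzd2 at -1.94 (468 and 1657 reads) and Fzd1 at -1.74 were also among them. The 3 on the KD-1 side were Sfrp1 (0.77, 3612 and 1948 reads), Tcf7 (0.70) and Lrp6 (0.64), and 1 was called under each of the other scalings. Of 21 BMP and TGF-beta pathway genes, 11 were called higher in KD-2 and 0 in KD-1 (median -0.82), with Id1, a target gene of BMP, at -1.66 (2757 and 7995 reads), the inhibitor Smad6 at -1.50, the antagonist Fst at -1.48 and Tgfb2 at -1.38. Of 18 FGF pathway genes, 2 were called in each direction (median -0.18), near or below the shares of all genes. Under the other scalings 1 to 2 were called higher in KD-1 and 3 to 6 in KD-2, and with GC decile medians subtracted 1 and 5. Fgf4, which ES cells secrete, was at 0.70 (10954 and 6192 reads) and Fgf15 at 0.80, whereas Fgf7, a fibroblast factor, was at -0.97 and Fgfr2 at -0.96.

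Imprinted genes, expressed from the copy of one parent, divided. Of 28 measured, 7 were called higher in KD-1 against 8 in KD-2, beside 11.0% and 15.2% of all genes. Each of the other scalings gave 10 calls towards KD-2, whereas those towards KD-1 numbered 5 to 7. After subtraction of GC decile medians, 5 of 27 were called towards KD-1 against 7 towards KD-2. H19 had 43961 and 127494 reads (-1.66) and its neighbour Igf2 was at -1.67, with Grb10 at -1.14 (6188 and 12580 reads). Zdbf2 (0.99), Peg10 (0.78) and Nespas (0.76) were higher in KD-1. Of the HOX genes, 4 of 4 measured HoxA genes were called higher in KD-2, from -0.93 (Hoxa10) to -1.21 (Hoxa11), and 3 of 4 HoxD genes, led by Hoxd8 (-0.80). The measured HoxC gene, Hoxc13, was at 0.23 with 131 and 103 reads, and no HoxB gene reached 100 reads. Of 23 clustered protocadherin genes, which mark neurons, 10 were called higher in KD-2 and 0 in KD-1 (median -0.48), with Pcdhb5 at -1.62 (52 and 148 reads) and Pcdhb22 at -1.30.

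Of all genes, 15.2% were called higher in KD-2 and 11.0% in KD-1. Of 25 p53 target genes, 5 were called higher in KD-2 and 1 in KD-1 (median -0.30), and 9 and 0 with GC decile medians subtracted, with Gdf15 at -1.84 (112 and 370 reads), Bbc3 at -0.90 and Pmaip1 at 0.75. Of 22 genes of the integrated stress response, 6 were called higher in KD-2 and 3 in KD-1, with Cebpb at -2.17 (228 and 947 reads) and Cth at 0.88. Of 20 chaperone genes 3 and 2 were called, with Hspa1b at -1.0 and Hsph1 at 0.69, of 22 cholesterol synthesis genes 1 and 2, with Hsd17b7 at -0.72 and Dhcr7 at 0.78, and of 21 glutathione and NRF2 target genes 2 and 0, with Gpx8 at -1.18 and Hmox1 at -0.65. Under the other scalings 0 chaperone genes and 1 gene each of the stress response and cholesterol lists were called higher in KD-1, and 4 chaperone genes, 7 to 8 stress response genes and 4 to 5 NRF2 targets in KD-2. Lists of other lineages were short after the filter. Of 13 measured primitive and visceral endoderm genes, 3 were called higher in KD-2 and 2 in KD-1, and of these Sparc (-1.01) and Pdgfra (-0.95) are also on the fibroblast list. Of 4 trophoblast genes H19 was called, of 6 mesendoderm and Nodal genes the 2 Lefty genes, and of 11 early neural genes 3 were higher in KD-1, with Fabp7 at 1.75 (206 and 56 reads), and 1 in KD-2, with Map2 at -0.78. The 3 became 1 to 2 under the other scalings and 5 with GC decile medians subtracted.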
